A study of Homo sapiens with 6 samples.

Results

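The 8 genes described here encode the switch that turns translation down under stress and back up again: the eIF2alpha kinases EIF2AK1 (HRI), EIF2AK3 (PERK) and EIF2AK4 (GCN2), their substrate EIF2S1 (eIF2alpha), the phosphatase subunits PPP1R15A (GADD34) and PPP1R15B (CReP), and the mitochondrial relay of the protease OMA1 and its substrate DELE1. They were selected by name for this pathway, not from measured values, and all 8 were found among the 16327 genes of the count table. RNA had been sequenced from 3 libraries of HN12 cells treated with CPI-613 for 24 h and from 3 libraries of HN12 cells treated with the solvent DMSO for the same time (Control). HN12 is a cell line from a squamous carcinoma of the human head and neck, so every value comes from 1 line, and CPI-613 (devimistat) is an analogue of lipoate aimed at the lipoate-dependent dehydrogenases of the tricarboxylic acid cycle. The dose is not given in the sources used here, and the labels do not say that the 3 libraries of a group came from separate cultures, so p-values reflect library-to-library variation alone, possibly only technical.

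Each kinase answers to its own signal. As background, HRI senses low heme and, through the relay, mitochondrial stress. PERK senses misfolded protein in the endoplasmic reticulum, and GCN2 senses uncharged transfer RNA. All phosphorylate eIF2alpha on the same serine, which slows the recycling of the initiation factor eIF2, lowers general translation and favours translation of ATF4. GADD34 is made under stress and CReP is made all the time, and each brings protein phosphatase 1 to eIF2alpha to remove the phosphate. In stressed mitochondria OMA1 cleaves DELE1, whose fragment binds HRI in the cytosol. Kinase activity, phosphorylation and cleavage are steps of proteins that messenger RNA levels do not measure.

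The libraries held 13458518, 13896440 and 15486514 estimated counts in CPI-613 replicates 1 to 3, and 11531949, 12508548 and 12171791 in Control replicates 1 to 3. All 10 markers of squamous epithelium, KRT5, KRT14 and TP63 among them, reached 1 FPKM (fragments per kilobase of transcript, scaled to library size), with a summed level of 3190 to 6600 FPKM with CPI-613 and 4980 to 7400 FPKM in Control. Of 7 fibroblast markers 4 were in the table and COL1A1 reached 1 FPKM, with sums of 5.71 to 6.11 FPKM with CPI-613 and 6.47 to 7.97 FPKM in Control. Of 4 endothelial markers none reached 1 FPKM, with sums of at most 0.08 FPKM with CPI-613 and 0.63 FPKM in Control. Of 7 leukocyte markers, 4 were in the table and CD68, CD14 and LYZ reached 1 FPKM, with sums of 29.5 to 46.9 FPKM with CPI-613 and 44.4 to 71.3 FPKM in Control. What part these markers have in any result was not tested.

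With CPI-613, the transcript of PPP1R15A rose about 3.33-fold and no other of the 8 genes passed the test in either direction. The kinases, the substrate, PPP1R15B, OMA1 and DELE1 gave estimates between 0.813-fold and 1.18-fold. Of 12671 genes tested (edgeR, quasi-likelihood; Benjamini-Hochberg adjusted p under 0.05), 1.94% were called higher, 1.24% lower and 3.18% in either direction, so 1 of 8 is a count of a single gene. Higher genes made up 61% of the calls. Scaling to library size alone put that share at 46.9% and the median of all genes at -0.17 (log2). The median log2 fold change was 0.10 over the 8 genes and 0.02 over all genes tested. PPP1R15A was also the only one of the 8 with an unadjusted p under 0.05, which 14.4% of all genes had (edgeR). DESeq2 and limma-voom likewise called 1 of the 8 each, where they called 7.05% and 3.27% of all genes. In RNA from a bulk culture, fewer cells that express a gene and less RNA per cell cannot be told apart.

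**Figure D1:**
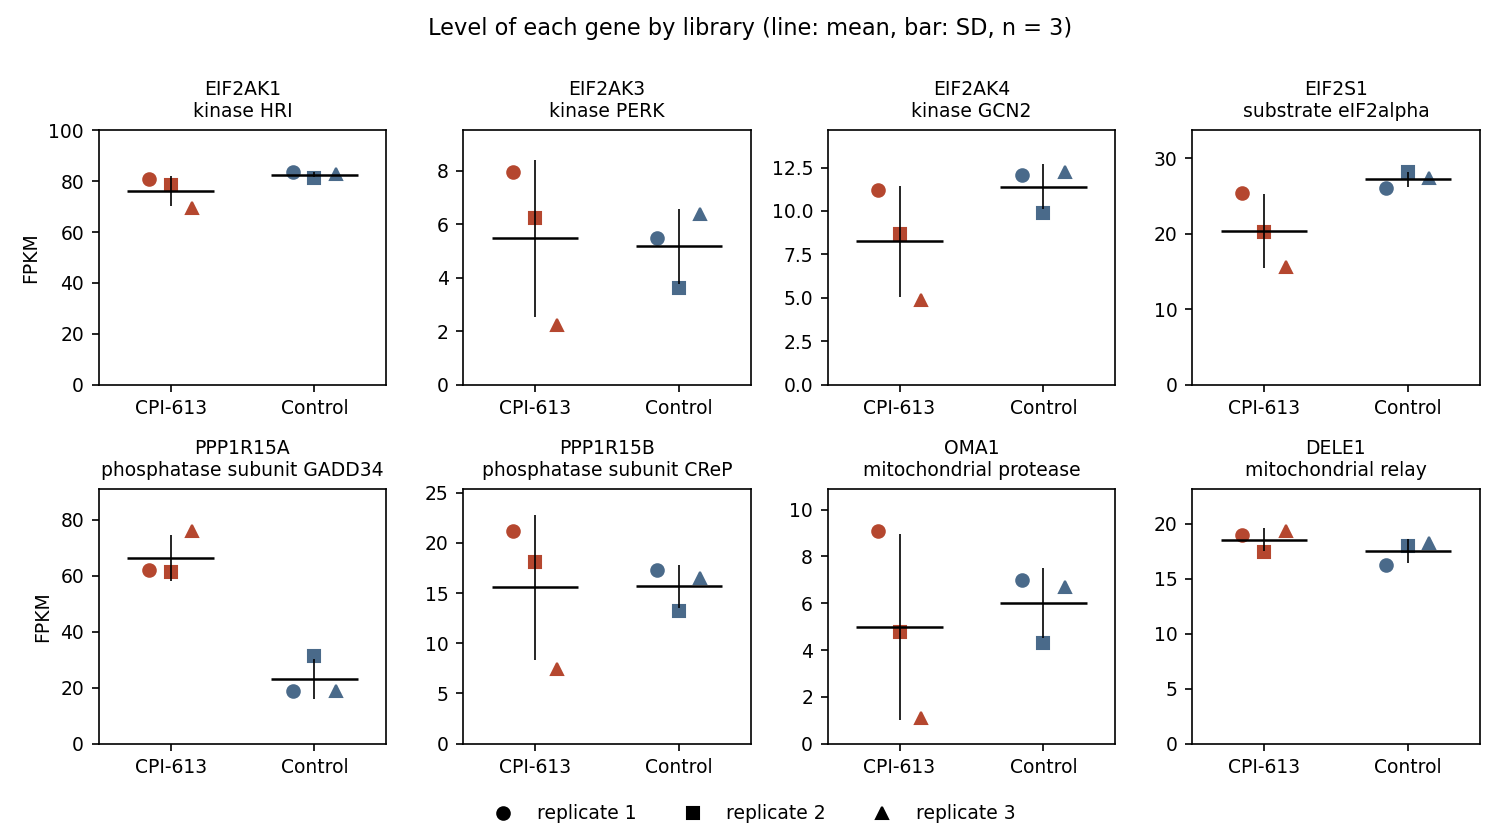
Level of each of the 8 genes in FPKM (vertical axis, from 0, own scale per panel) in CPI-613 (left, red) and Control (right, blue) libraries; symbols are replicates, horizontal lines means and vertical bars SD (n = 3). PPP1R15A lies at 61.2 to 75.9 FPKM with CPI-613 and at 18.8 to 31.2 FPKM in Control. CPI-613 replicate 3 (triangle) is the lowest of the 6 libraries for EIF2AK1, EIF2AK3, EIF2AK4, EIF2S1, PPP1R15B and OMA1.

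PPP1R15A (gene ID 23645) lies on chromosome 19 at 48872421 to 48876058 (GRCh38) and was counted as 1 transcript. It had 1765, 1807 and 2485 estimated counts in CPI-613 replicates 1 to 3, against 461, 826 and 484 in Control replicates 1 to 3. In CPM (counts scaled to a common library size) it averaged 152 ± 35.3 with CPI-613 and 45.7 ± 15.9 in Control (SD, n = 3 each). Every CPI-613 library lay above every Control library, with Control replicate 2 the highest of its group. On the log2 scale this was a change of 1.74 (SE 0.30, 95% interval 1.03 to 2.44), which passed (edgeR, Benjamini-Hochberg adjusted p = 0.0292), at place 263 by p among the genes tested. That call ended without Control replicate 1, without Control replicate 3 or without CPI-613 replicate 2, at adjusted p of 0.176, 0.177 and 0.138 (edgeR), while the fold change stayed between 1.54 and 2.04 on the log2 scale whichever single library was left out. With DESeq2, the adjusted p was 0.00424 or less in each of these 6 refits.

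Its constitutive counterpart PPP1R15B (gene ID 84919, chromosome 1, 204395826 to 204411817) had 21.1, 18.1 and 7.41 FPKM with CPI-613, against 17.3, 13.2 and 16.5 FPKM in Control. CPI-613 replicates 1 and 2 were the highest of the 6 libraries and CPI-613 replicate 3 the lowest, so the groups overlapped. The log2 fold change of 0.14 (SE 0.32, 95% interval -0.62 to 0.91) did not pass (edgeR, Benjamini-Hochberg adjusted p = 0.877), and its interval runs from 0.652-fold to 1.87-fold. The ratio of PPP1R15A to PPP1R15B within a library, which does not depend on the scaling between libraries, was 2.94, 3.38 and 10.2 with CPI-613 and 1.10, 2.37 and 1.14 in Control. Stress-induced and constitutive subunit were thus near equal per length in Control replicates 1 and 3, and every CPI-613 ratio was above every Control ratio. The mean log2 ratio was higher by 1.70 with CPI-613 (exact two-sided permutation test, p = 0.1, the smallest that 3 against 3 libraries allow). It was higher by 1.13 without CPI-613 replicate 3, whose low PPP1R15B and high PPP1R15A gave the ratio of 10.2. The ratio does depend on each library's trend with GC content and transcript length, described below. That fitted trend (log2) was -0.33, 0.06 and 0.47 for PPP1R15A in CPI-613 replicates 1 to 3, and 0.37, -0.01 and -0.72 for PPP1R15B. In Control replicates 1 to 3 it was -0.14, 0.12 and -0.17 for PPP1R15A and 0.21, -0.12 and 0.28 for PPP1R15B. No ratio with this trend removed is given here. PPP1R15A made up 74.6%, 77.2% and 91.1% of the summed FPKM of both subunits with CPI-613, against 52.3%, 70.3% and 53.3% in Control.

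The promoters of this pair are shown because 1 gene of the pair passed the test and the other did not. The sequences are RefSeq's for GRCh38 patch 14, 250 bases before to 50 bases after the annotated start, 5′ to 3′ on the strand of the gene, with matches to TGACG, TGACGTCA, TGATGNAA and CCAAT in capitals.
PPP1R15A, chr19:48872171-48872470, plus strand: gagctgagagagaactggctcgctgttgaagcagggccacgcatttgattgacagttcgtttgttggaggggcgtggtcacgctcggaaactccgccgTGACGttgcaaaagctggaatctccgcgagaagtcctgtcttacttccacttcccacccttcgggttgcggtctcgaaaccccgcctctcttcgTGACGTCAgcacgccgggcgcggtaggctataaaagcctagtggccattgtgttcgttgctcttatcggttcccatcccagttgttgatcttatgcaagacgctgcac
PPP1R15B, chr1:204411768-204412067, minus strand: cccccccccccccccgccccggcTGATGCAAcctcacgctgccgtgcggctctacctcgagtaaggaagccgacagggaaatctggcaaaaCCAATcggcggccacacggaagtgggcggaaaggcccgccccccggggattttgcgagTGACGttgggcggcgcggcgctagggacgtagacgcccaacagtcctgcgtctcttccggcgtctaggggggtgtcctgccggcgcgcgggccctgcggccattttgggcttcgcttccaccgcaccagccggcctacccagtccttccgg

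Motifs were searched on both strands of the 7 promoters of the 8 genes that the table holds (all but EIF2AK1) and of all 27305 promoters of the same length. The cyclic AMP response element TGACGTCA, a site of CREB and ATF family factors, occurred in the PPP1R15A promoter, starting at base -58 from the start site, and in none of the other 6; 1.98% of all promoters hold it. Its core TGACG, which this palindrome contains on both strands, occurred once more in PPP1R15A at base -152 and once each in PPP1R15B, OMA1 and DELE1, against 25% of all promoters. The amino acid response motif TGATGNAA, of the kind that ATF4 and its partners bind, occurred in PPP1R15B at base -227 and in no other of the 7, against 3.67% of all promoters. CCAAT occurred 4 times in EIF2AK3, once in PPP1R15B and once in DELE1, against 35.7% of promoters. The endoplasmic reticulum stress element (ERSE) was in none of the 7 and in 0.0806% of all promoters, and the antioxidant motif TGACNNNGC, which can overlap TGACG, was found 2 times in PPP1R15A and once in OMA1, against 13.6%. These are matches of letters in a fixed window, and binding was not measured.

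The 5 genes whose pattern over the 6 libraries was most like that of PPP1R15A, among 10867 genes compared (mean of at least 2 in log2 CPM), were PHLDA2, CXCL3, PYGB, FOXQ1 and SMTN. They differed from it by a root mean square of 0.109 to 0.140 in log2 CPM, after each gene was centred on its own mean. PHLDA2, a small pleckstrin homology protein, had 109, 141 and 200.1 CPM in CPI-613 replicates 1 to 3, against 35.6, 61 and 40.9 CPM in Control replicates 1 to 3. As for PPP1R15A, CPI-613 replicate 3 was the highest of its group and Control replicate 2 the highest of its group. The same libraries were highest for the median of all genes in the GC content bin of PPP1R15A (bins described below). Its deviations from the group mean were -0.40, -0.01 and 0.41 with CPI-613 and -0.08, 0.20 and -0.11 in Control (log2 CPM). Patterns were compared without removing that trend, and its part in the likeness was not tested. PYGB, a glycogen phosphorylase, had 213, 259 and 338 CPM with CPI-613, against 77.6, 124 and 75.8 CPM in Control. The log2 fold changes were 1.71 for PHLDA2, 1.66 for the chemokine CXCL3, 1.55 for PYGB, 1.99 for the forkhead factor FOXQ1 and 1.50 for the actin-binding protein SMTN. CXCL3 has close paralogs, so its counts are uncertain.

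Among the kinases, EIF2AK1 was by far the most abundant transcript per length. EIF2AK1 (gene ID 27102, chromosome 7, 6022247 to 6059175) had 80.8, 78.5 and 69.3 FPKM with CPI-613, against 83.5, 81.4 and 82.7 FPKM in Control. All CPI-613 values were below all Control values in FPKM, where 14.6% of genes with a mean of at least 1 FPKM lay below in this way and 8.49% above. In CPM, which is scaled by TMM (trimmed mean of M values), the groups overlapped, at 259 ± 11.9 with CPI-613 and 251 ± 4.63 in Control (SD, n = 3 each). The log2 fold change was 0.05 (SE 0.15, 95% interval -0.31 to 0.41; edgeR, Benjamini-Hochberg adjusted p = 0.911), and -0.14 when scaled by library size only. Relative to the median of all genes EIF2AK1 was 0.02 higher in that fit. In the FPKM table, where that median was -0.16, EIF2AK1 at -0.12 lay 0.04 above it, and with no filter on low FPKM, where the median was -0.079, it lay below, at -0.038 relative to that median.

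EIF2AK3 (gene ID 9451, chromosome 2, 88556741 to 88628145) had 7.94, 6.23 and 2.24 FPKM with CPI-613, against 5.50, 3.62 and 6.39 FPKM in Control. The highest and the lowest of the 6 libraries were both CPI-613 libraries. Its log2 fold change was 0.24 (SE 0.42, 95% interval -0.76 to 1.24; edgeR, Benjamini-Hochberg adjusted p = 0.851), a range of 0.592-fold to 2.36-fold. Its sensor role is tied to the chaperone HSPA5 (BiP), which binds and restrains PERK. HSPA5 measured 3652 ± 627 CPM with CPI-613 and 1808 ± 72.6 CPM in Control (SD, n = 3 each), every CPI-613 library above every Control library, and did not pass (edgeR, Benjamini-Hochberg adjusted p = 0.0505). A fit described below removed each library's trend with GC content and transcript length and called 11.7% of all genes. There HSPA5 passed, at a log2 fold change of 1.05 (SE 0.12; edgeR, Benjamini-Hochberg adjusted p = 0.00174).

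EIF2AK4 (gene ID 440275, chromosome 15, 39934115 to 40035591) had 11.2, 8.70 and 4.87 FPKM with CPI-613, against 12.1, 9.90 and 12.2 FPKM in Control. CPI-613 replicates 2 and 3 were below all Control libraries, and CPI-613 replicate 1 lay between Control replicates 2 and 1. The log2 fold change was -0.30 (SE 0.26, 95% interval -0.92 to 0.32; edgeR, Benjamini-Hochberg adjusted p = 0.729). It was below 0 in all 31 refits of the same comparison and called in none of them. EIF2AK2 (PKR), the fourth eIF2alpha kinase, which senses double-stranded RNA and was named here for its role, measured 41.2 ± 23 CPM with CPI-613 and 69.9 ± 12.1 CPM in Control (SD, n = 3 each), with overlapping groups and no call (log2 fold change -0.76, SE 0.42; edgeR, Benjamini-Hochberg adjusted p = 0.520).

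Per length, EIF2AK1 made up 80.8%, 84% and 90.7% of the summed FPKM of the 3 kinases with CPI-613, against 82.6%, 85.8% and 81.6% in Control. The share of EIF2AK4 was 11.2%, 9.31% and 6.37% with CPI-613, against 11.9%, 10.4% and 12.1% in Control, and that of EIF2AK3 was 7.95%, 6.67% and 2.93%, against 5.44%, 3.81% and 6.31% in Control. CPI-613 replicate 3 thus had the lowest shares of both lesser kinases among the 6 libraries. The ratio of EIF2AK4 to EIF2AK3 was 1.41, 1.40 and 2.17 with CPI-613 and 2.19, 2.73 and 1.91 in Control. The mean log2 ratio differed by -0.47, CPI-613 minus Control (exact two-sided permutation test, p = 0.2, smallest possible 0.1). The ratio of EIF2AK1 to EIF2AK3 differed by -0.05 on the same scale (exact two-sided permutation test, p = 0.9), with CPI-613 ratios of 10.2, 12.6 and 31 against Control ratios of 15.2, 22.5 and 12.9.

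EIF2S1 (gene ID 1965, chromosome 14, 67360328 to 67386516), the subunit that the kinases phosphorylate, had 25.4, 20.2 and 15.6 FPKM with CPI-613, against 26.1, 28.2 and 27.4 FPKM in Control. As with EIF2AK1, every CPI-613 value was below every Control value in FPKM, and the groups overlapped in CPM, at 84.6 ± 11.1 with CPI-613 and 99.7 ± 7.49 in Control (SD, n = 3 each). The log2 fold change of -0.24 (SE 0.18, 95% interval -0.66 to 0.19) did not pass (edgeR, Benjamini-Hochberg adjusted p = 0.677). The partner subunits EIF2S2 (eIF2beta) and EIF2S3 (eIF2gamma) measured 145 ± 80.6 and 187 ± 38 CPM with CPI-613, against 142 ± 15.1 and 168 ± 9.85 CPM in Control (SD, n = 3 each), and neither was called. EIF2S2 alone ranged over 229, 139 and 68.4 CPM in CPI-613 replicates 1 to 3.

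In the mitochondrial relay, OMA1 had the fewest counts of the 8 genes and, among CPI-613 libraries, the widest spread for its level, while DELE1 was among the steadiest. OMA1 (gene ID 115209, chromosome 1, 58480719 to 58546726) had 198, 108 and 28 estimated counts in CPI-613 replicates 1 to 3, against 131, 87 and 132 in Control. In FPKM this was 9.07, 4.76 and 1.11 with CPI-613 and 7.01, 4.28 and 6.69 in Control, so that CPI-613 libraries held both the highest and the lowest value. The log2 fold change was -0.14 (SE 0.60; edgeR, Benjamini-Hochberg adjusted p = 0.938) and turned to 0.32 (SE 0.32) without CPI-613 replicate 3. Its 95% interval runs from 0.343-fold to 2.40-fold, so these libraries do not bound a change of OMA1 to within a doubling or a halving.

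DELE1 (gene ID 9812, chromosome 5, 141923871 to 141942047) had 19, 17.4 and 19.3 FPKM with CPI-613, against 16.3, 18 and 18.3 FPKM in Control. The groups overlapped in FPKM, and in CPM every CPI-613 library lay above every Control library, at 65.2 ± 1.89 with CPI-613 and 57.3 ± 3.32 in Control (SD, n = 3 each). Over all genes tested 11.8% lay above and 9.17% below in this way. The log2 fold change of 0.19 (SE 0.17, 95% interval -0.21 to 0.59) did not pass (edgeR, Benjamini-Hochberg adjusted p = 0.739), and its interval runs from 0.862-fold to 1.50-fold. The ratio of DELE1 to OMA1 was 2.09, 3.66 and 17.4 with CPI-613 and 2.32, 4.21 and 2.73 in Control. The difference in mean log2 ratio was 0.77 (exact two-sided permutation test, p = 0.7), and -0.11 without CPI-613 replicate 3, the library with 28 OMA1 counts.

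**Figure D2:**
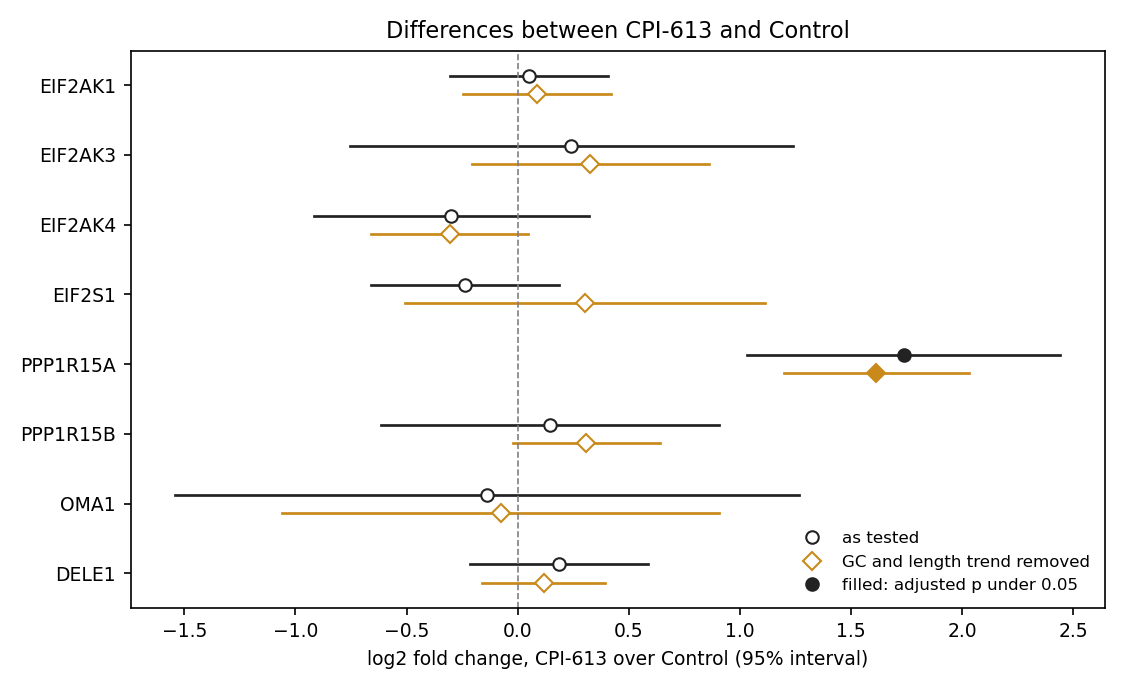
Log2 fold change of CPI-613 over Control (horizontal axis) with 95% intervals for the 8 genes, from the edgeR fit (black circles) and from the fit that removed trends with transcript GC content and length (orange diamonds); filled symbols passed an adjusted p of 0.05. PPP1R15A, at 1.74 and 1.61, is the gene with filled symbols, and the other intervals include 0 in both fits.

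Ordered by mean FPKM with CPI-613, the genes ran EIF2AK1 (76.2), PPP1R15A (66.4), EIF2S1 (20.4), DELE1 (18.6), PPP1R15B (15.6), EIF2AK4 (8.26), EIF2AK3 (5.47) and OMA1 (4.98). In Control the order was EIF2AK1 (82.6), EIF2S1 (27.2), PPP1R15A (23), DELE1 (17.5), PPP1R15B (15.7), EIF2AK4 (11.4), OMA1 (5.99) and EIF2AK3 (5.17). With CPI-613 the libraries of each neighbouring pair overlapped except PPP1R15A and EIF2S1, and PPP1R15A stood close to EIF2AK1, which was higher in 2 of 3 libraries. In Control the pairs EIF2S1 and PPP1R15A, DELE1 and PPP1R15B, and OMA1 and EIF2AK3 overlapped, and the other neighbours did not. Among all genes of the FPKM table, the mean level of PPP1R15A exceeded 91.8% of genes with CPI-613 and 76.1% in Control, and that of EIF2AK1 exceeded 92.8% with CPI-613 and 93.3% in Control.

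Much of the spread among CPI-613 libraries followed the GC content of the transcripts. The tested genes were split into 10 equal bins by GC content. In CPI-613 replicate 3 the bin of lowest GC content had a median deviation from the group mean of -1.04 in log2 CPM, and the bin of highest 0.45. In CPI-613 replicate 1 the same bins were at 1.01 and -0.46, and in Control replicate 2 at -0.37 and 0.23. The longest transcripts of the 8 genes had GC contents of 39.2% (EIF2S1), 43.4% (PPP1R15B), 43.5% (OMA1), 44.4% (EIF2AK3), 46.8% (EIF2AK1), 47.3% (EIF2AK4), 51.5% (DELE1) and 58.8% (PPP1R15A). In CPI-613 replicate 3, OMA1 deviated from its group mean by -1.49, EIF2AK3 by -0.95, PPP1R15B by -0.78 and EIF2AK4 by -0.52 in log2 CPM, while PPP1R15A was at 0.36. The medians of their bins in that library were -0.34 for OMA1, EIF2AK3 and PPP1R15B, -0.05 for EIF2AK4 and 0.41 for PPP1R15A. OMA1, EIF2AK3, PPP1R15B and EIF2AK4 thus lay below the medians of their bins. EIF2S1, with the lowest GC content, deviated by -0.20 in that library, less than the median of -0.90 in its bin.

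**Figure D3:**
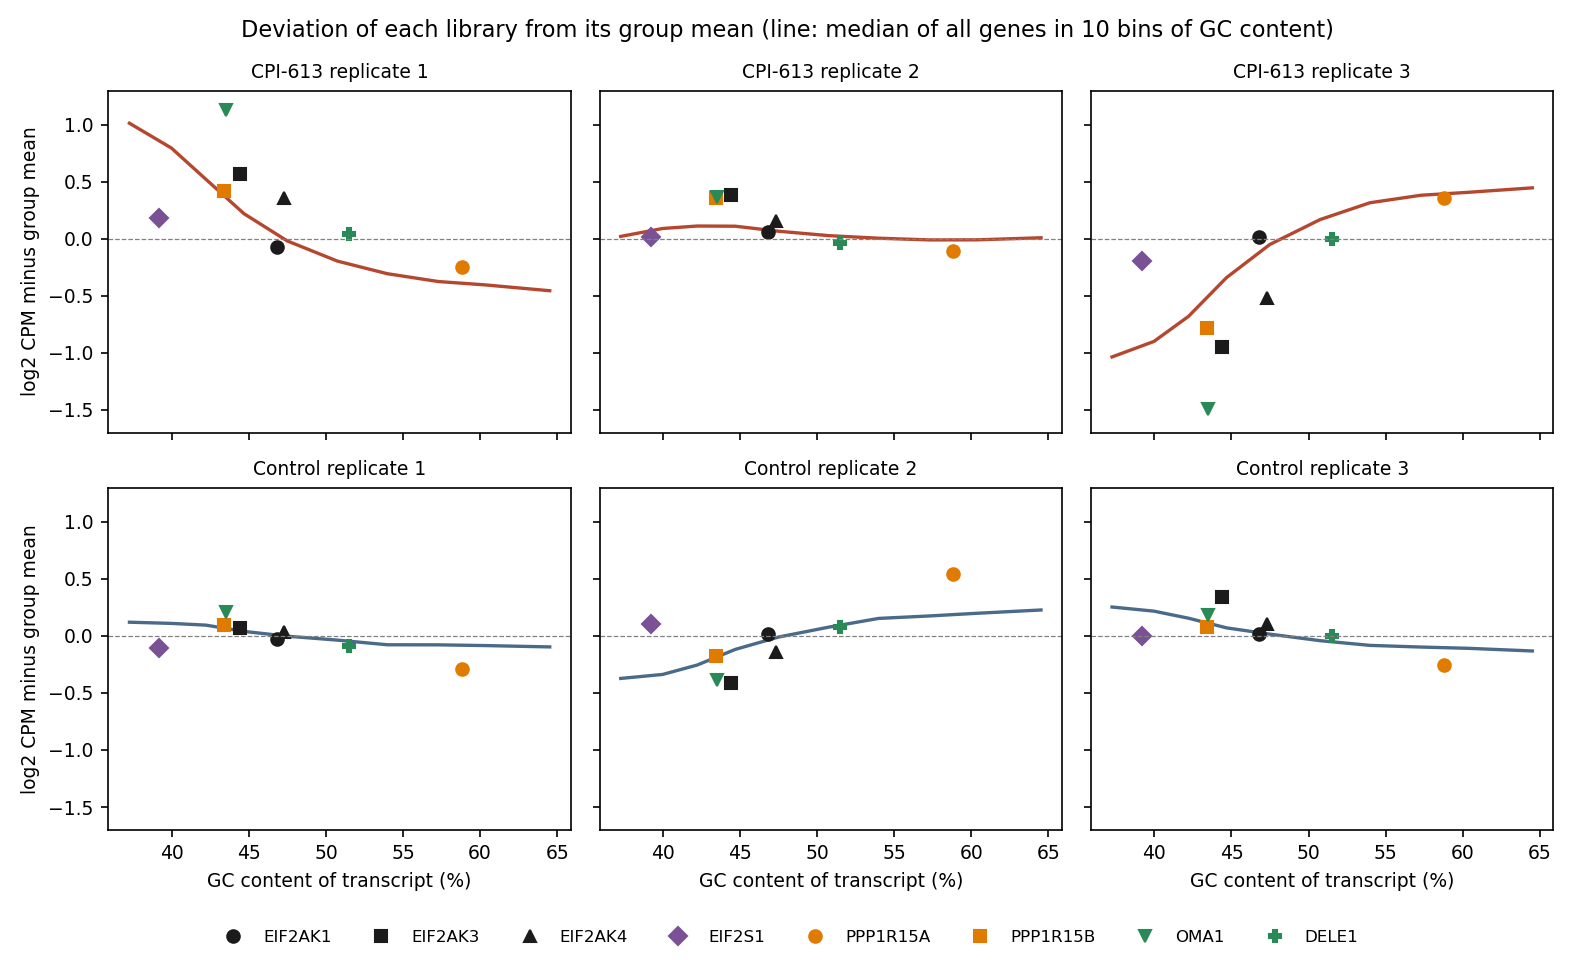
Deviation of each library from its group mean in log2 CPM (vertical axis) against transcript GC content in percent (horizontal axis), CPI-613 above and Control below; lines join the medians of all genes in 10 bins of GC content and symbols are the 8 genes. In CPI-613 replicate 3 the line runs from -1.04 to 0.45 and OMA1 lies at -1.49, and in CPI-613 replicate 1 the line runs the other way, from 1.01 to -0.46.

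In a fit that removed the trend of every library with GC content and transcript length, PPP1R15A still passed, with a log2 fold change of 1.61 (SE 0.18; edgeR, Benjamini-Hochberg adjusted p = 0.00174), where 11.7% of all genes were called, 6.65% of all genes higher and 5.01% lower. It kept its call in each of the 6 refits that left out a library, at adjusted p of 0.00205 to 0.0143 (edgeR). The interval of EIF2AK3 narrowed to 0.866-fold to 1.81-fold and that of PPP1R15B to 0.986-fold to 1.56-fold. The estimate for EIF2S1 turned to 0.30 (SE 0.35), with an interval of 0.703-fold to 2.16-fold, wider than before. None of these 7 genes passed in this fit. What makes the libraries differ along GC content was not tested.

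EIF2AK1 was counted over 3 RefSeq transcripts, and their shares were not the same in both groups. Transcript NM_001134335 took 6.36%, 8.24% and 6.56% of the gene's estimated counts with CPI-613, against 12.7%, 13.5% and 13.1% in Control, with no overlap. It was singled out after its values were seen. Its estimated counts were 220, 290 and 221 with CPI-613 and 397, 440 and 436 in Control, and the log2 fold change was -0.90 (SE 0.22) with an unadjusted p of 0.00589 and no call over all transcripts (edgeR, Benjamini-Hochberg adjusted p = 0.289). DESeq2 called it lower, with a log2 fold change of -0.91 (SE 0.23, Benjamini-Hochberg adjusted p = 0.00274). Predicted transcript XM_024446718 took 64.7%, 62.5% and 68.8% with CPI-613 and 59.2%, 63.3% and 55.8% in Control, and NM_014413 held 24.7% to 29.3% with CPI-613 and 23.3% to 31% in Control. How reads that fit more than 1 transcript were divided is an estimate whose own error is not in the table.

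**Figure D4:**
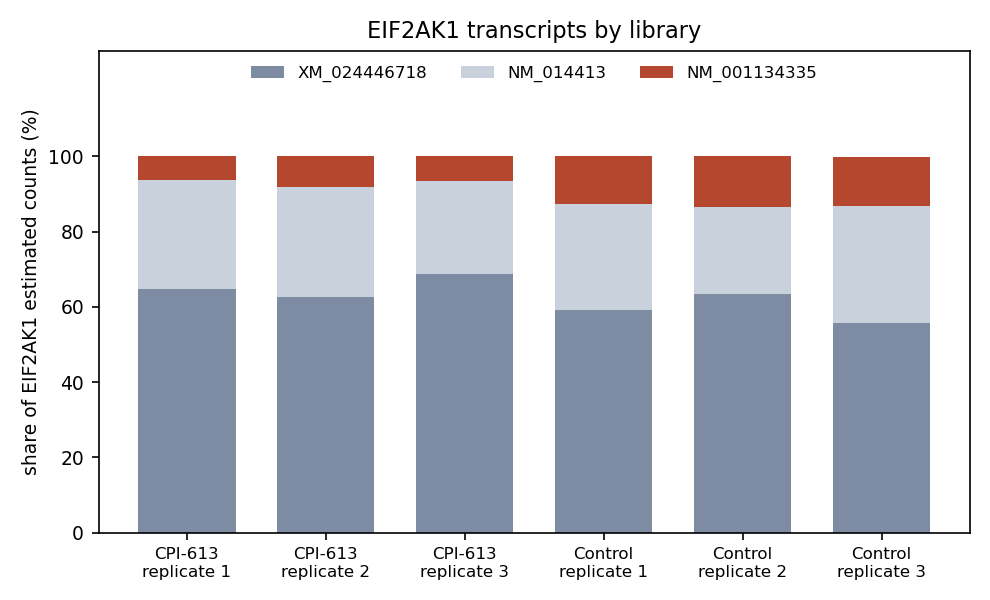
Share of EIF2AK1 estimated counts (vertical axis, percent) held by each of its 3 RefSeq transcripts in the 3 CPI-613 libraries (left) and the 3 Control libraries (right). The red segment, NM_001134335, is 6.36% to 8.24% with CPI-613 and 12.7% to 13.5% in Control.

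The 8 genes had 21 transcripts in the table, of which 19 passed the count filter and 0 were called by edgeR, where 0.0349% of 40150 transcripts were called. At an unadjusted p under 0.05 there were 2, the single PPP1R15A transcript and NM_001134335, and DESeq2 called the same 2, against 3.45% of all transcripts it tested. The main PPP1R15B transcript NM_032833 held 91.4% to 94.1% of its gene with CPI-613 and 93.4% to 96.3% in Control. EIF2AK3 was carried by NM_004836, with 97.4%, 96.4% and 75.2% with CPI-613 and 70.2%, 88.6% and 97.1% in Control. DELE1 was spread over 9 transcripts, led by NM_014773 with 49.3% to 64.2% with CPI-613 and 57.5% to 66.4% in Control, and predicted transcript XM_024446275 took 22.8% in CPI-613 replicate 3 and at most 5.26% in each other library. XM_005268552 held 6.73% to 11% of DELE1 with CPI-613 and 11% to 11.7% in Control. EIF2AK4, EIF2S1, PPP1R15A and OMA1 had 1 transcript each.

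In GENCODE 29, exons of EIF2AK1 overlap those of AIMP2 by up to 532 bases and exons of EIF2S1 those of ATP6V1D by up to 253 bases, both on the opposite strand. EIF2AK3 overlaps 2 antisense genes, and OMA1 shares up to 150 bases of exon with DAB1 on the same strand. Whether reads were counted by strand is not given in the sources used here, so the counts of EIF2AK1, EIF2AK3 and EIF2S1 may hold reads of the neighbour. For OMA1 counting by strand would not separate the reads it shares with DAB1. PPP1R15A, PPP1R15B, EIF2AK4 and DELE1 overlap no exon of another gene there.

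Around the 8 genes, edgeR made no calls among their partners and regulators and 12 among the genes downstream of eIF2alpha phosphorylation. The downstream list names genes whose rise in these libraries was already known, so these counts do not test a difference between the lists. In 5 lists of partners and regulators, 0 of 80 tested genes were called by edgeR, where 3.18% of all genes were, so a count this low is near that share. An unadjusted p under 0.05 was reached by 5 of the 80 with a higher level and 1 with a lower one, against 8.45% and 5.93% of all genes. DESeq2 called 3 of the 80 higher and 0 lower, against 3.88% and 3.17% of all genes. Limma-voom called 2 higher and 0 lower, against 1.95% and 1.32%. Of 17 genes of eIF2, eIF2B and start codon selection, with a median log2 fold change of 0.04, the ones with the smallest p were EIF1 and EIF2B2. EIF1, which guards start codon choice, measured 841 ± 183 CPM with CPI-613 and 384 ± 70.9 CPM in Control (edgeR, Benjamini-Hochberg adjusted p = 0.0543), and EIF2B2, a subunit of the eIF2 recycling factor, 51.9 ± 16 CPM with CPI-613 and 30.1 ± 6.50 CPM in Control (edgeR, Benjamini-Hochberg adjusted p = 0.273; SD, n = 3 each). Among 13 kinase regulators and PKR, with a median of 0.11, these were HSPA5 and the small heat shock protein HSPB8, which measured 1.68 ± 0.895 CPM with CPI-613 and 3.12 ± 0.428 CPM in Control. Among 8 partners of protein phosphatase 1, with a median of 0.07, the catalytic subunit PPP1CC measured 87.8 ± 23 CPM with CPI-613 and 123 ± 6.56 CPM in Control, and ACTB, whose actin takes part in the GADD34 complex, 7914 ± 2748 CPM with CPI-613 and 5836 ± 904 CPM in Control.

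Of 26 genes of mitochondrial proteases, import and their partners none passed in either direction (edgeR; 1 higher at an unadjusted p under 0.05, 1 higher by DESeq2 and 0 by limma-voom), with a median log2 fold change of 0.08. LONP1, the matrix protease, measured 222 ± 62.5 CPM with CPI-613 and 117 ± 13.9 CPM in Control (log2 fold change 0.92, SE 0.24; edgeR, Benjamini-Hochberg adjusted p = 0.113). It passed once the GC and length trend was removed, at 0.76 (SE 0.10; edgeR, Benjamini-Hochberg adjusted p = 0.00349). DNAJC19, an import co-chaperone, measured 34.1 ± 1.97 CPM with CPI-613 and 24.8 ± 3.40 CPM in Control. YME1L1, the protease that competes with OMA1 for OPA1 and was named for that role, had 124, 84.1 and 33.5 CPM with CPI-613 and 104, 73.8 and 116 CPM in Control, and OPA1 had 71.4, 19.8 and 9.14 CPM with CPI-613 and 57.5, 33.2 and 55.4 CPM in Control. As for OMA1, CPI-613 replicate 3 was the lowest of the 6 libraries for both. That library had the negative median deviations at low GC content described above. What part that trend has here was not tested.

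Heme synthesis and breakdown, tied to HRI through its heme sensing, held 16 tested genes, with no call by edgeR, DESeq2 or limma-voom and a median of 0.12 in log2 fold change. The unadjusted edgeR p was under 0.05 for ALAS1, which was higher, and ALAD, which was lower. ALAS1, the first and rate-limiting enzyme of heme synthesis, measured 72.6 ± 20.4 CPM with CPI-613 and 44.3 ± 6.25 CPM in Control (edgeR, Benjamini-Hochberg adjusted p = 0.253). ALAD, the next enzyme, measured 31.1 ± 2.19 CPM with CPI-613 and 45.6 ± 4.72 CPM in Control (edgeR, Benjamini-Hochberg adjusted p = 0.246). In both genes the groups did not overlap. With the GC and length trend removed ALAS1 was called higher, at 0.57 (SE 0.13; edgeR, Benjamini-Hochberg adjusted p = 0.0338), and ALAD lower, at -0.66 (SE 0.16; edgeR, Benjamini-Hochberg adjusted p = 0.0327). That fit called 5 of the 80 partners and regulators higher (EIF1, HSPA5, LONP1, HSPA9 and ALAS1) and 1 lower (ALAD), against 6.65% and 5.01% of all genes. EIF1 was at 1.15 there (SE 0.23; edgeR, Benjamini-Hochberg adjusted p = 0.0196).

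**Figure D5:**
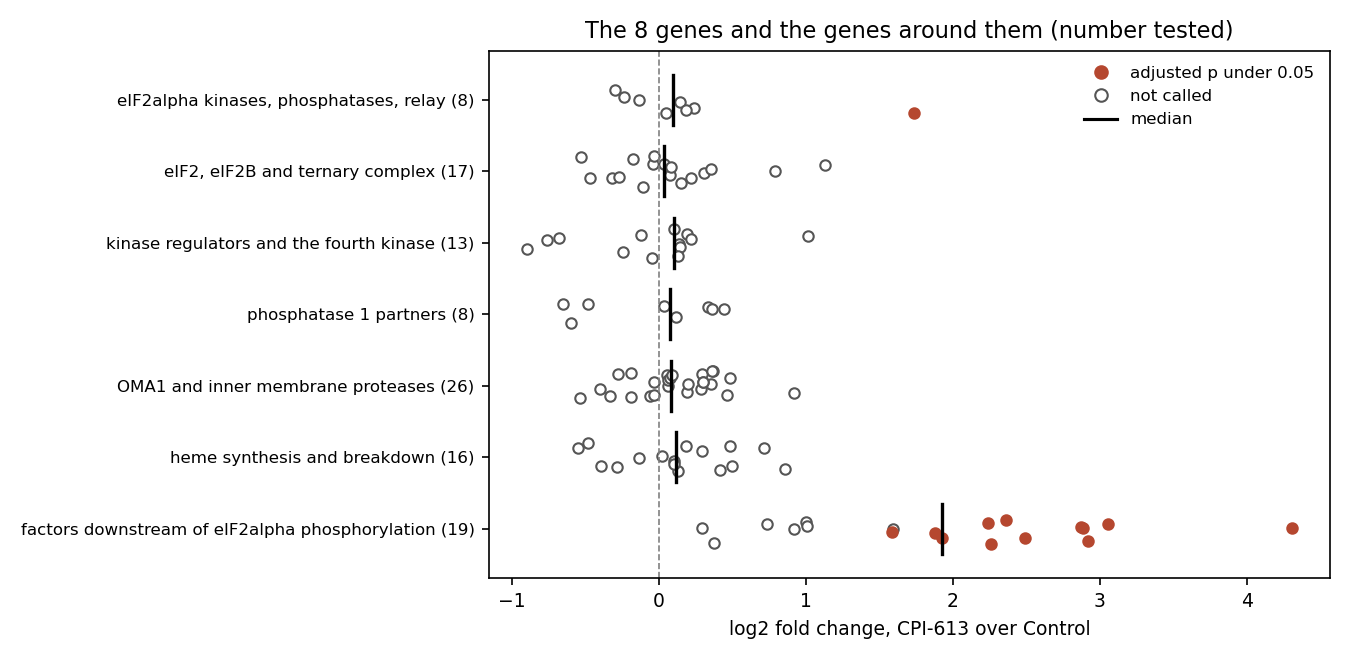
Log2 fold change of CPI-613 over Control (horizontal axis) for the 8 genes and for the tested genes of 6 surrounding lists; red points passed an adjusted p of 0.05 in the edgeR fit, open points did not, and black bars are medians. In the 5 lists of partners and regulators the medians lie between 0.04 and 0.12 with no red point, and in the downstream list the median is 1.92 with 12 red points. The downstream list names genes whose rise in these libraries was already known.

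Of 20 factors and targets downstream of eIF2alpha phosphorylation, 19 were tested, of which 12 rose and none fell (edgeR), leaving 7 without a call. Their median was 1.92 on the log2 scale, and FGF21 did not pass the count filter. An unadjusted p under 0.05 was reached by 17, all with a higher level, and DESeq2 called 14 higher and 0 lower. Limma-voom called 11 higher and 0 lower. Of all genes, edgeR called 1.94% higher, DESeq2 3.88% and limma-voom 1.95%, and 8.45% were higher at an unadjusted edgeR p under 0.05. The largest rises were in CHAC1, a glutathione-degrading enzyme, at 4.30 (SE 0.47), and the pseudokinase TRIB3, at 3.06 (SE 0.33), on the log2 scale (edgeR, Benjamini-Hochberg adjusted p = 0.00736 for both). GDF15, a stress cytokine, rose by 2.92 (SE 0.26) and CTH, which makes cysteine, by 2.88 (SE 0.22) on the log2 scale (edgeR, Benjamini-Hochberg adjusted p = 0.00692 and 0.00418). PPP1R15A, itself a known target of ATF4 and CHOP, gave 1.74 on the log2 scale. ATF4 and CHOP (DDIT3) gave 1.00 (SE 0.22) and 1.88 (SE 0.19) on the same scale (edgeR, Benjamini-Hochberg adjusted p = 0.0679 and 0.00720). With the GC and length trend removed ATF4 was called higher, at 0.85 (SE 0.12; edgeR, Benjamini-Hochberg adjusted p = 0.00389). That fit called 16 of the 19 genes higher and 0 lower, against 6.65% and 5.01% of all genes. Over all 6 lists edgeR made 12 calls with every library, 1 when CPI-613 replicate 2 was left out, 20 when CPI-613 replicate 1 was, and 0 when either Control replicate 1 or Control replicate 3 was, and DESeq2 gave 13 to 29 in the same refits. This list names genes whose rise in these libraries was already known, so its count describes them and is not independent evidence.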

How the data were processed

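Per the labels' protocols, total RNA was extracted with TRIzol, libraries were built with NEBNext Ultra II reagents, and sequencing followed DNBSEQ protocols. STAR 2.5, HTSeq, CASAVA, DESeq2, edgeR 3.16.5 and build hg38 appear in the submitters' processing notes, with no roles. Annotation and strand setting of the counting: not given in the sources used here. In one table the authors deposited estimated counts per RefSeq transcript, and a second table per gene that the authors' file does not name a unit for. Its values were taken as FPKM, made by the authors before deposit, because over 1417 genes with 1 transcript the reads per unit followed the library total within 0.58%.

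For gene-level tests, transcript counts were added up and rounded. The 27 transcripts with a cell that is no number were left out, none of them of the 8 genes; 53 genes without a symbol held 0.016% of counts. edgeR 4.0.16 (filterByExpr with a minimum count of 10 and 15 in total, TMM, quasi-likelihood test, two-sided, group only) tested 12671 genes, with Benjamini-Hochberg adjustment at 0.05. A standard error is the log2 fold change over the square root of F, and 95% intervals use the test's degrees of freedom. The longest protein-coding transcript in GENCODE 29 gave GC content and length for 99.48% of tested genes, and the trend was a spline with 5 degrees of freedom each. Alternatives used DESeq2 1.42.0, limma 3.58.1 and others listed in the closing section. The scripts were tested on simulated counts. Coordinates are RefSeq's for GRCh38 patch 14, matched by gene ID. Depth was 11531949 to 15486514 counts per library.

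All 8 genes are named, and from each list up to 4 called genes with the largest changes, or the 2 with the smallest p. EIF2AK2, EIF2S2, EIF2S3, YME1L1, OPA1, ATF4, DDIT3, HSPA9 and NM_001134335 were named beyond that rule. The genes, lists and alternatives were chosen with earlier results of these data known.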

Additional observations from a re-analysis of the deposited data

How the results depend on the processing

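PPP1R15A was called in 28 of 31 alternatives, at log2 fold changes of 1.50 to 2.04, and the other 7 genes in none. The 31 include refits without 1 library by DESeq2 or with the GC and length offset, chosen after seeing the data. All of those refits called PPP1R15A. The alternatives without that call were edgeR refits without CPI-613 replicate 2, Control replicate 1 or Control replicate 3. With all 6 libraries kept, estimates of those 7 that changed sign were EIF2AK1 (-0.058 with upper-quartile scaling, -0.14 with library size only, -0.12 in FPKM with limma-trend at a pseudocount of 1, -0.12 at 0.1 and -0.12 with no filter on low values), EIF2AK3 (-0.028, -0.061 and -0.028 in the same FPKM settings), PPP1R15B (-0.014 with library size only, -0.12, -0.13 and -0.12 in FPKM), DELE1 (-0.0024 with library size only) and EIF2S1 (0.30 with the GC and length offset, 0.23 with that offset and the replicate block). Genes called numbered 403 with edgeR, 893 with DESeq2 and 1477 with the GC and length offset. List calls numbered 12, 17 and 22 in the same order. The cause of these moves was not tested.

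With the replicate block 191 genes were called, and 890 with block and offset, which gave 19 list calls. The block changed no call among the 8 genes (PPP1R15A: edgeR, Benjamini-Hochberg adjusted p = 0.0484). Deviations from the group means correlated at 0.46, -0.10 and -0.61 between same-numbered libraries, and 0 of 3 CPI-613 libraries correlated best with their own number, so the numbers were not taken as pairs. DESeq2 called 2 transcripts of the 8 genes, against 0 with edgeR.

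Leaving out 1 library at a time, with edgeR, and as alternatives chosen after seeing the data with DESeq2 or the offset, gave 0 to 2656 called genes, 0 to 1 of the 8 genes and 0 to 29 list calls. The 0 genes came from edgeR without Control replicate 1 or without Control replicate 3, where 1064 and 1118 genes had an unadjusted p below 0.05 and DESeq2 called 404 in each. The estimates that changed sign in these refits ranged from -0.039 to 0.19 for EIF2AK1, from -0.062 to 0.58 for EIF2AK3, from -0.35 to 0.58 for EIF2S1, from -0.074 to 0.44 for PPP1R15B and from -0.81 to 0.32 for OMA1. Mean log2 ratios differed by -0.11 to 1.42 for DELE1 to OMA1 and by -0.54 to 0.27 for EIF2AK1 to EIF2AK3. With 3 libraries a group, and 28 counts of OMA1 in 1 of them, the 95% intervals of EIF2AK3 and OMA1 reach 2.36-fold and 2.40-fold.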
